A study of Mus musculus with 6 samples.

Results

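The integrated stress response is the program that cells start when eIF2 is phosphorylated. It was followed here through 31 genes that encode its transcription factors and feedback proteins and the amino acid enzymes, transporters and tRNA synthetases tied to it. The genes were chosen by name, with earlier results of these data known. All 31 were among the 41053 gene names of the count tables, and all 31 passed the filter on low counts together with 15232 other genes (15263 tested in all). The cells were cultured spermatogonial stem cells from adult mice, the germline stem cells of the testis. They were electroporated with a plasmid carrying a GFP reporter, and, for the knockout lines, a guide RNA against Ephb2, a receptor tyrosine kinase. Sorting for GFP and subcloning gave 3 lines of each genotype, wild type and labelled Ephb2-KO, and polyadenylated RNA of each line was sequenced as 1 library. In each group the libraries numbered 1 and 2 were at passage 20 and the library numbered 3 was at passage 18. The labels do not say that lines of equal number had a common origin, so p-values measure the spread between these libraries. In the comparisons of numbers, that spread is only how the 2 libraries of 1 number differ beyond the genotype label. The spread between numbers is the difference under test there, and number 3 is the only number at passage 18.

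When eIF2 is phosphorylated, by kinases that sense amino acid shortage, misfolded protein, double-stranded RNA or low heme, most translation slows while the Atf4 mRNA is translated better. ATF4 is a basic leucine zipper activator that pairs with C/EBP proteins and acts on genes for amino acid synthesis, amino acid uptake and tRNA charging. Its targets also include further transcription factors such as Atf3, Atf5 and Ddit3, and Ppp1r15a, whose product restores eIF2. Much of this control acts on translation, which mRNA levels do not measure.

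Several of these genes are known to carry near their start a composite C/EBP and ATF element, whose core can be written TGATGNAA (N is any base; TTNCATCA on the other strand). RefSeq promoter windows (GRCm38.p6, 250 bases before to 50 after the start) matched 27 of the 31 genes by symbol; Slc7a3, Slc7a5, Nars and Wars had no entry. The core was found on either strand in 9 of the 27 (33.3%), against 4.51% of 27025 symbols in the whole table. A match describes these letters only. The stretches below are those of the 8 matching genes with the highest mean level. They are shown because genes whose window held the core and genes whose window did not are set side by side further on. A window without the core does not show that the gene lacks the element. Capitals mark the core, and each runs 5′ to 3′ on the gene's strand.
Gars (chr6:55037951-55037998, plus strand, core 30 bases before the start): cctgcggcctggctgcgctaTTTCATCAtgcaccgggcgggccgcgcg
Aars (chr8:111033710-111033757, plus strand, 112 before): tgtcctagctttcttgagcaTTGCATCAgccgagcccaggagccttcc
Asns (chr6:7693210-7693252, minus strand, 23 before): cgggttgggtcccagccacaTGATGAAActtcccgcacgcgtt
Trib3 (chr2:152344028-152344057, minus strand, just after the start): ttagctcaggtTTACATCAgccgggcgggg
Atf3 (chr1:191183416-191183463, minus strand, 110 before): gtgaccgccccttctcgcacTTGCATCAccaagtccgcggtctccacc
Pycr1 (chr11:120643824-120643871, minus strand, 103 before): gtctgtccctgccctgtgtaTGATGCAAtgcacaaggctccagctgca
Nupr1 (chr7:126625553-126625600, minus strand, 110 before): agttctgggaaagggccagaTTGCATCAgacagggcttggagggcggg
Chac1 (chr2:119351029-119351076, plus strand, 193 before): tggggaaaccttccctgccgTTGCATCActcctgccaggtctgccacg
Aars held a further core just after its start. The ninth, Slc7a11, held 2 cores and is not printed because its mean level was the lowest.

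Levels are in CPM, counts scaled to 1 library size with TMM factors. Total counts ran from 21772404 to 34047758, and a count of 3 was worth 0.0803 to 0.147 CPM in a single library. Ephb2 itself measured 21.3, 27.1 and 10.8 CPM in wild-type libraries 1, 2 and 3, against 37.1, 16.5 and 13.4 CPM in the labelled Ephb2-KO libraries. Its mRNA did not separate the groups and the lines are named by their labels. The libraries numbered 3 stood apart from the other 4. All 14 germ cell markers were above 1 CPM in each library, and their summed level was 2000 and 2280 CPM in the libraries numbered 3 against 3270 to 3860 in the others. The 16 fibroblast markers summed to 18500 and 22100 CPM in the libraries numbered 3 against 3360 to 5720, and none was at 0 in all libraries. Sertoli cell markers summed to 56.8 to 94.9 CPM (Fshr at 0 throughout) and blood and endothelial markers to 11.3 to 34.6 CPM. In bulk RNA, a different number of cells of a type and a different amount of RNA per cell cannot be told apart.

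Per kilobase of exon, the levels of the 31 genes spanned a wide range. Ddit4, an inhibitor of mTORC1 signalling, was highest at 218 CPM per kilobase (mean of 6 libraries). The heteromeric amino acid transporter followed, with 149 for its light chain Slc7a5 and 143 for its heavy chain Slc3a2, beside the glycyl-tRNA synthetase Gars at 148 and Atf4 at 119. At the low end stood Pycr1 (4.67), Chac1 (3.95), the arginine transporter Slc7a3 (1.72) and the cystine transporter Slc7a11 (0.344). Together the 31 genes took 0.433% to 0.474% of all counts, a narrow range over the 6 libraries.

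**Figure D1:**
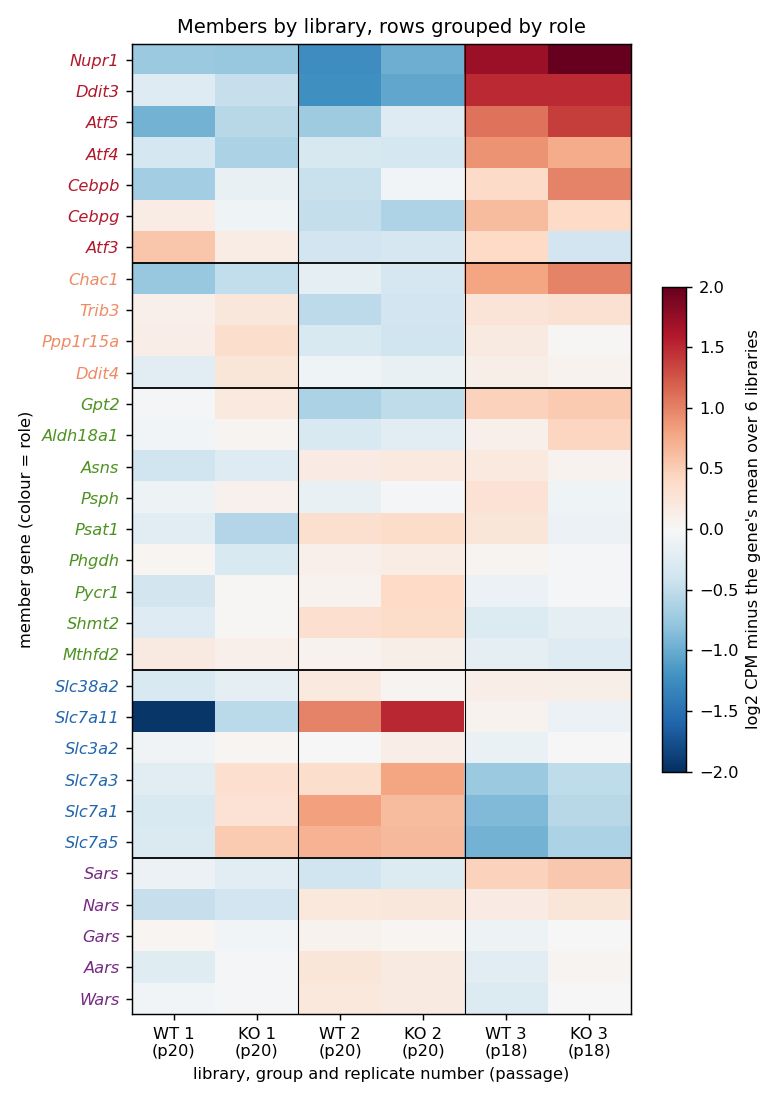
Each cell is the log2 CPM of 1 gene in 1 library minus that gene's mean over the 6 libraries; colours saturate at 2 in either direction, libraries with the same replicate number stand side by side, and gene names are coloured by role. The upper block of transcription factors, except Atf3, is red in both libraries numbered 3, and Slc7a5, Slc7a1 and Slc7a3 are blue there. Wild-type and labelled Ephb2-KO columns of 1 number look alike in most rows.

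The largest differences among the 31 genes ran between replicate numbers rather than between genotypes. Libraries with the same number deviated from their group mean together over all tested genes (correlations of 0.596, 0.736 and 0.85 for numbers 1, 2 and 3). Number 3, the only one at passage 18, was therefore compared with numbers 1 and 2 in a fit that kept the genotype label as a term. Passage and replicate number cannot be told apart in this comparison. By edgeR's quasi-likelihood test, 17 of the 31 genes passed an adjusted p of 0.05, 12 higher and 5 lower in number 3. Over all tested genes 48.0% passed (25.0% higher and 23.0% lower), so the share of 54.8% was near the background. The median log2 fold change was 0.15 over the 31 genes and -0.03 over all tested genes. With a fold past 2 added, 8 of the 31 passed, 25.8% against 19.2% of all tested genes. In 15 of the 31 both libraries numbered 3 lay outside the range of the other 4, 48.4% against 53.5% of all tested genes.

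Of the 7 transcription factors, 6 rose in number 3, 85.7% against 25.0% of all tested genes. Their median log2 fold change was 1.24 over the 7. Atf4 stood at 147, 150 and 350 CPM in the wild-type lines (numbers 1, 2 and 3), against 121, 146 and 314 CPM in the labelled Ephb2-KO libraries. Both libraries numbered 3 lay above the other 4, and the difference was 2.36-fold (log2 1.24, SE 0.12, edgeR adjusted p = 9.19e-06). Atf5, a paralogue of Atf4 that is also controlled at translation, stood at 50.8, 59.8 and 208 CPM and at 66.6, 82.4 and 257 CPM. It was 3.62-fold higher in number 3 (log2 1.86, SE 0.11, edgeR adjusted p = 3.6e-07), with no overlap. Ddit3, which encodes the C/EBP-family factor CHOP, had 14.8, 7.6 and 49.6 CPM in the wild-type lines, against 12.9, 8.6 and 49.8 CPM in the others. Its level in number 3 was 4.69-fold higher (log2 2.23, SE 0.15, edgeR adjusted p = 9.11e-07).

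Nupr1, a small nuclear stress protein, showed the largest fold of the 31 genes. It had 6.03, 4.23 and 32.8 CPM in wild-type libraries 1, 2 and 3 and 5.98, 5.13 and 40.4 CPM in the labelled Ephb2-KO libraries, 6.87-fold higher in number 3 (log2 2.78, SE 0.17, edgeR adjusted p = 4.26e-07). Cebpb and Cebpg encode C/EBP partners of ATF4. Cebpb stood at 19.7, 23.4 and 41.6 CPM and at 28.8, 30.7 and 63.5 CPM, a log2 fold change of 1.03 (SE 0.13, edgeR adjusted p = 0.000116). Cebpg stood at 56.1, 36.4 and 78.5 CPM and at 48.1, 33.3 and 67.3 CPM, a log2 fold change of 0.77 (SE 0.12, edgeR adjusted p = 0.000446). In both genes the libraries numbered 3 were the highest of their group and of all 6.

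Atf3, a repressor and a usual companion of Ddit3 in stressed cells, was the exception. It had 45.4, 23.6 and 40.8 CPM in the wild-type lines, against 34.3, 24.6 and 23.6 CPM in the labelled Ephb2-KO libraries. The libraries numbered 3 lay inside the range of the others, and the log2 fold change was 0.02 (95% interval -0.37 to 0.41). Its sign turned against number 1 alone (-0.33) and stayed positive against number 2 alone (0.37).

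**Figure D2:**
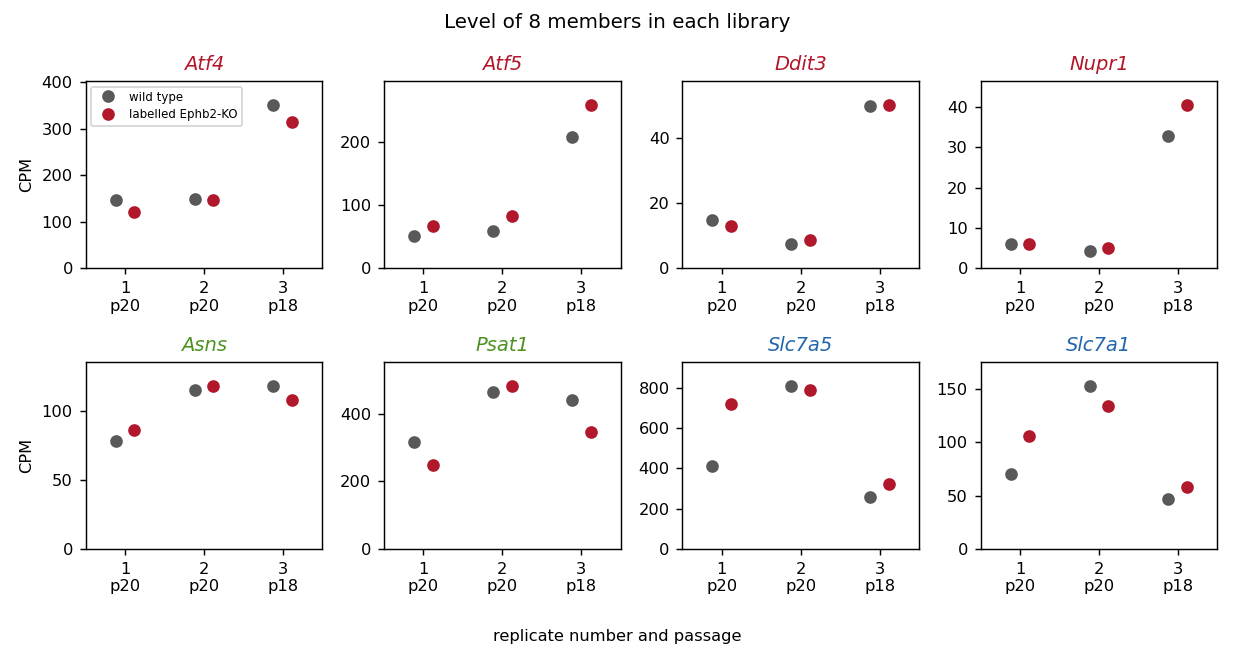
Points are the CPM of 8 genes in single libraries (grey, wild type; red, labelled Ephb2-KO) by replicate number and passage (p20, p18), on linear axes that start at 0. Atf4, Atf5, Ddit3 and Nupr1 are highest in both libraries numbered 3, Slc7a5 and Slc7a1 are lowest there, and Asns and Psat1 are lowest in number 1.

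The feedback and effector genes split. Chac1, which breaks down glutathione and is a target of ATF4, had 3.43, 5.13 and 10 CPM in wild-type libraries 1, 2 and 3 and 4.14, 4.59 and 11.5 CPM in the others. It rose in number 3 by a log2 fold change of 1.32 (SE 0.22, edgeR adjusted p = 0.00059). Trib3, a pseudokinase that restrains ATF4, had a log2 fold change of 0.43 (SE 0.13, edgeR adjusted p = 0.0157), a call that was lost without either library numbered 3 (adjusted p = 0.252 without wild-type and 0.15 without Ephb2-KO replicate 3). Against number 1 alone it was 0.12 (adjusted p = 0.527), since Trib3 was low in number 2. Ppp1r15a (GADD34) ranged from 99.9 to 167 CPM and Ddit4 from 316 to 431 CPM over the 6 libraries, and neither passed.

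Of the 9 synthesis enzymes, 2 rose and 2 fell in number 3, and Asns, Psat1, Phgdh and Psph were not among them. The share called was 44.4%, against 48.0% of all tested genes. Gpt2, a mitochondrial alanine transaminase, stood at 38.4, 25.4 and 54.3 CPM in the wild-type lines, against 45.3, 27.7 and 56.5 CPM in the labelled Ephb2-KO libraries, a log2 fold change of 0.74 (SE 0.13, edgeR adjusted p = 0.000853). Without wild-type replicate 3 it did not pass (adjusted p = 0.053). Aldh18a1, which makes the precursor of proline and ornithine, had 0.40 (SE 0.12, edgeR adjusted p = 0.0187). The mitochondrial folate enzymes went the other way, with -0.34 (SE 0.12) for both Shmt2 (edgeR adjusted p = 0.0386) and Mthfd2 (edgeR adjusted p = 0.0349). These 3 calls were lost without wild-type replicate 3 (adjusted p of 0.0965 for Aldh18a1, 0.275 for Shmt2 and 0.271 for Mthfd2) or Ephb2-KO replicate 3 (0.377, 0.356 and 0.319). Shmt2 also missed without wild-type replicate 2 or Ephb2-KO replicate 1, and Mthfd2 without wild-type replicate 1. Against number 1 alone the Shmt2 value was -0.11, and neither it nor Aldh18a1 passed. Mthfd2 did not pass against number 2 alone. Of 14 alternatives, 9 kept the call on Shmt2, 10 that on Mthfd2 and 11 that on Aldh18a1.

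Asns, the asparagine synthetase and a standard readout of ATF4, stood at 77.9, 115 and 118 CPM in the wild-type lines (numbers 1, 2 and 3), against 86.1, 118 and 108 CPM in the labelled Ephb2-KO libraries. Number 3 was level with number 2, and the log2 fold change was 0.21 (95% interval -0.05 to 0.48). Psat1, the aminotransferase of serine synthesis, had 317, 464 and 441 CPM and 247, 482 and 345 CPM, a log2 fold change of 0.10 (95% interval -0.19 to 0.39). Phgdh, the first enzyme of that route, ranged from 155 to 212 CPM (0.01, 95% interval -0.27 to 0.29). A 2-fold difference of these 3 genes lay outside their intervals. The direction of each turned with the baseline: against number 2 alone the values were -0.04 for Asns, -0.28 for Psat1 and -0.12 for Phgdh. Against number 1 alone, Asns (0.47, edgeR adjusted p = 0.0205) and Psat1 (0.48, edgeR adjusted p = 0.0273) passed. Psph, the last step of serine synthesis, ranged from 62.6 to 84.8 CPM and the proline enzyme Pycr1 from 14.0 to 24.0 CPM, and neither passed.

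Of the 6 transporters, 3 fell in number 3 and none rose. Over all tested genes 23.0% fell and 25.0% rose. The share of transporters called in either direction was near the 48.0% of all tested genes. Slc7a5, the leucine-importing light chain LAT1, stood at 410, 810 and 260 CPM in the wild-type lines (numbers 1, 2 and 3), against 720, 789 and 322 CPM in the labelled Ephb2-KO libraries. Both libraries numbered 3 were below the other 4, 2.30-fold lower (log2 -1.20, SE 0.17, edgeR adjusted p = 0.000232). Slc7a1, the main importer of arginine and lysine, stood at 70.0, 153 and 46.6 CPM and at 106, 134 and 58.5 CPM. It was 2.15-fold lower (log2 -1.10, SE 0.17, edgeR adjusted p = 0.000312). Slc7a3, a further cationic amino acid transporter, had 5.28, 7.76 and 3.63 CPM and 7.67, 10.5 and 4.27 CPM, a log2 fold change of -0.94 (SE 0.23, edgeR adjusted p = 0.00673). The call on Slc7a3 was lost without either library numbered 3, and against number 1 alone, where the value was -0.69. It held under 11 of 14 alternatives.

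The heavy chain Slc3a2, which carries Slc7a5 and Slc7a11 to the cell surface, did not move with Slc7a5. It ranged from 384 to 462 CPM, a log2 fold change of -0.09 (95% interval -0.35 to 0.17). Slc38a2, a glutamine transporter known to rise on amino acid starvation, ranged from 188 to 268 CPM and did not pass. Slc7a11 differed most between numbers 1 and 2 and is described with that comparison.

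Of the 5 tRNA synthetases, 2 rose in number 3, Sars under each alternative and Nars under 7 of 14. The share called was 40.0%, against 48.0% of all tested genes. Sars (seryl-tRNA) stood at 196, 161 and 295 CPM in the wild-type lines, against 184, 177 and 310 CPM in the labelled Ephb2-KO libraries, 1.69-fold higher (log2 0.76, SE 0.12, edgeR adjusted p = 0.000374). Nars (asparaginyl-tRNA) had 0.31 (SE 0.11, edgeR adjusted p = 0.0469) and -0.01 against number 2 alone. It did not pass without wild-type replicate 1 (adjusted p = 0.0736) or 3 (0.328), without Ephb2-KO replicate 1 (0.071), 2 (0.0614) or 3 (0.361), or with no filter on low counts (0.122). Aars ranged from 237 to 332 CPM, Wars from 74.1 to 104 CPM and Gars from 331 to 370 CPM, and these did not pass.

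**Figure D3:**
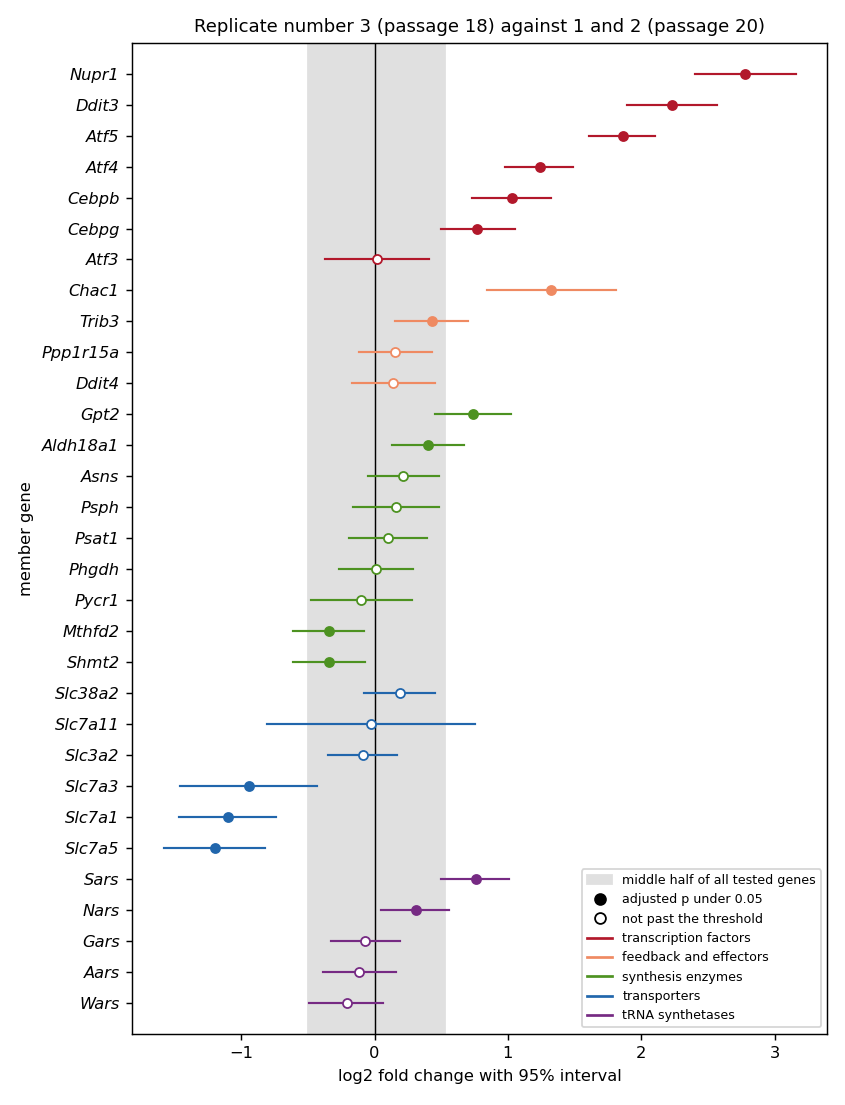
Points are log2 fold changes of number 3 (passage 18) against numbers 1 and 2 (passage 20) with 95% intervals, coloured by role; filled points passed an adjusted p of 0.05 and the grey band holds the values between the quartiles of all tested genes (-0.50 to 0.53). Nupr1, Ddit3, Atf5 and Atf4 lie to the right of the band and Slc7a5, Slc7a1 and Slc7a3 to the left, while Asns, Psat1 and Phgdh lie inside it.

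Of the 17 calls, 10 held under each of the alternatives that tested the gene: Atf4, Atf5, Ddit3, Nupr1, Cebpb, Cebpg, Chac1, Sars, Slc7a5 and Slc7a1. These include number 3 against number 1 alone and against number 2 alone. Of the 9 genes whose promoter window held TGATGNAA, 3 were called in number 3 (Nupr1, Chac1 and Trib3), and of the 18 matched genes without it 11 were called. Over all tested genes 48.0% were called, and the difference between the 9 and the 18 was not tested. The fibroblast markers differed too: 13 of the 16 rose in number 3, 1 fell, and the list median was a log2 fold change of 2.31. Of the 14 germ cell markers, 11 fell in number 3, with a list median of -0.75. The part of either in the values above was not tested.

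Other genes of the same pathways were mixed in number 3, and their counts stand beside 25.0% higher and 23.0% lower over all tested genes. Of 16 genes for eIF2 kinases and translation initiation, 5 rose and 2 fell, 43.8% in all against 48.0%. Impact, an inhibitor of the eIF2 kinase GCN2, was at 31.8 to 49.1 CPM in the 4 libraries numbered 1 and 2 and at 150 and 152 CPM in number 3 (log2 1.98, SE 0.12, edgeR adjusted p = 3.22e-07). The GCN2 activator Gcn1l1 fell (log2 -0.80, SE 0.15, adjusted p = 0.00109), and Dnajc3, an inhibitor of the kinases PERK and PKR, rose (log2 0.76, SE 0.12, adjusted p = 0.000471). Impact is also an imprinted gene.

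Of 18 tested further ATF4 targets and amino acid transporters, 7 rose and 3 fell (55.6% against 48.0%). Vldlr, a lipoprotein receptor induced by ATF4, stood at 31.2, 33.9 and 154 CPM in the wild-type lines (numbers 1, 2 and 3), against 41.8, 43.2 and 188 CPM in the labelled Ephb2-KO libraries (log2 2.20, SE 0.11, edgeR adjusted p = 1.43e-07). The neutral amino acid transporters Slc1a4 and Slc1a5 rose with log2 fold changes of 1.73 (SE 0.13, edgeR adjusted p = 1.47e-06) and 1.60 (SE 0.13, edgeR adjusted p = 3.16e-06). The 3 that fell were also transporters of neutral amino acids, Slc38a1 (-1.57, SE 0.18), Slc43a1 (-1.0, SE 0.21) and Slc7a8 (-1.69, SE 0.54), with edgeR adjusted p of 4.83e-05, 0.00364 and 0.0297. They were named after their values were seen. The stress hormone genes Fgf21 and Gdf15 did not pass the filter on low counts.

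Of 20 further folate and amino acid enzymes, 9 rose and 4 fell (65.0% against 48.0%). Bcat2, a branched-chain amino acid transaminase, had a log2 fold change of 2.44 (SE 0.15, edgeR adjusted p = 4.53e-07). The folate dehydrogenases Aldh1l2 and Aldh1l1 had 1.92 (SE 0.15) and 1.91 (SE 0.19), with edgeR adjusted p of 2.76e-06 and 1.18e-05. Of 15 further cytosolic tRNA synthetases, 2 rose and 7 fell (60.0%): Cars rose (0.71, SE 0.12), and Iars (-0.59, SE 0.14) and Vars (-0.57, SE 0.14) fell, with edgeR adjusted p of 0.000843, 0.0056 and 0.00582. Of 20 chaperone and unfolded protein response genes of the endoplasmic reticulum, 8 rose and 3 fell (55.0%). Herpud1, which serves degradation of misfolded proteins, had 2.16 (SE 0.14, edgeR adjusted p = 7.28e-07). Xbp1, the factor of the parallel IRE1 branch, had 0.81 (SE 0.13) and the chaperone Calr 0.69 (SE 0.12), with edgeR adjusted p of 0.000522 and 0.000877.

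**Figure D4:**
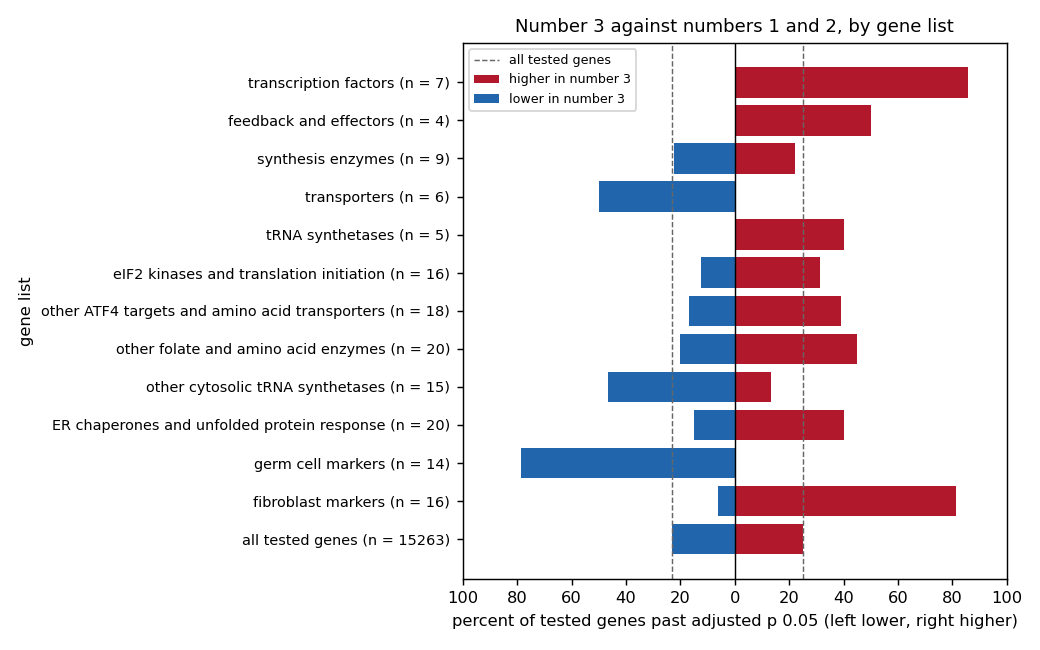
Bars give the percent of tested genes of each list that passed an adjusted p of 0.05 in number 3 against numbers 1 and 2 (right, higher; left, lower), with the number tested in brackets and dashed lines at the values for all tested genes (25.0 and 23.0%). Transcription factors and fibroblast markers reach far to the right and germ cell markers far to the left; the short lists hold 4 to 9 genes, so 1 gene is a large step.

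The comparison of number 2 with number 1, both at passage 20, shows how far these genes differed between lines at 1 passage. By edgeR 12 of the 31 passed, 6 higher and 6 lower in number 2 (38.7%, against 16.5% of all tested genes, 8.14% higher and 8.35% lower). The pattern was not that of number 3. The 31 genes had a median log2 fold change of 0.17, against -0.01 over all tested genes. Slc7a11, the cystine importer, had the largest difference. It measured 0.777 and 5.96 CPM in wild-type lines 1 and 2, against 2.06 and 8.51 CPM in the labelled Ephb2-KO libraries. Number 2 was 5.32-fold higher (log2 2.41, SE 0.40, edgeR adjusted p = 0.00351), and number 3, at 3.14 and 2.75 CPM, lay between.

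By role, 3 of the 9 synthesis enzymes rose in number 2 and 1 fell. In the same comparison 3 of the 7 transcription factors and 2 of the 4 feedback genes fell. Higher in number 2 were 2 of the 6 transporters and 1 of the 5 tRNA synthetases. Over all tested genes 8.14% rose and 8.35% fell, 16.5% in all. The roles hold 4 to 9 genes, so 1 gene is a large step. Psat1 rose by 0.76 (SE 0.15, edgeR adjusted p = 0.0089), Slc7a1 by 0.74 (SE 0.18, edgeR adjusted p = 0.0208), Nars by 0.63 (SE 0.13, edgeR adjusted p = 0.0109), Asns by 0.51 (SE 0.14, edgeR adjusted p = 0.032) and Shmt2 by 0.48 (SE 0.14, edgeR adjusted p = 0.0407). Lower in number 2 were Ddit3 (-0.77, SE 0.19), Atf3 (-0.70, SE 0.20), Gpt2 (-0.65, SE 0.15), Trib3 (-0.61, SE 0.15), Ppp1r15a (-0.60, SE 0.15) and Cebpg (-0.58, SE 0.15), with edgeR adjusted p from 0.0173 to 0.0399. Atf4 itself had 0.15 (95% interval -0.16 to 0.46). Only Psat1, Nars and Slc7a11 kept their call under each alternative that tested them. Without wild-type replicate 2 only 4 of the 31 genes passed, without Ephb2-KO replicates 2 or 3 there were 7 each, and without wild-type replicate 3 there were 6. Mitochondrially encoded transcripts were also higher in number 2 (7 of 7 tested), and lower in number 3 (7 of 7). Of 13 such genes listed, those not tested had at most 2 reads in any library, so they were not measured here. The part of these transcripts was not tested.

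Among the other pathway genes, number 2 had higher Gcn1l1 (0.67, SE 0.16), Impact (0.46, SE 0.14), Sesn2 (0.61, SE 0.15), Eif4ebp1 (0.52, SE 0.16), Vars (0.53, SE 0.15), Bcat1 (1.28, SE 0.23), Xbp1 (0.80, SE 0.16) and Ern1 (0.99, SE 0.22), each past the threshold by edgeR. Sesn2 is an inhibitor of mTORC1 that senses leucine, and Ern1 encodes IRE1. Lower were Herpud1 (-0.97, SE 0.18), the glycine transporter Slc6a9 (-0.65, SE 0.18) and Tdh, at or below 2.25 CPM in each library (-2.81, SE 0.61). By list, 2 of 16 initiation genes rose, 2 of 18 further targets and transporters rose and 1 fell, 6 of 20 further enzymes rose and 2 fell, 1 of 15 synthetases rose, and 2 of 20 chaperone genes rose and 1 fell. The shares called were 12.5%, 16.7%, 40.0%, 6.67% and 15.0% in that order, against 16.5% of all tested genes (8.14% higher and 8.35% lower). Eif2s1 (0.40, SE 0.14), Farsb (0.44, SE 0.14) and Rars (0.41, SE 0.14) had the next smallest p in their lists and did not pass.

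The comparison of genotype labels asked how these genes differ when the guide against Ephb2 was used. None of the 31 genes passed. In edgeR without a block, 0 of the 31 passed an adjusted p of 0.05 and 0 an unadjusted p of 0.05, against 0% and 0.210% of all tested genes. DESeq2 called 0 of the 31 (0.0262% of all tested genes). With the replicate number as a block, edgeR called 0 of the 31 (0.0262% of all) and 4 at an unadjusted p under 0.05 (12.9%, against 6.47% of all), and DESeq2 called 0 (0.124% of all). No gene of the 31 had group ranges that did not overlap, against 2.39% of all tested genes. The median log2 fold change was 0.10 over the 31 genes and 0.01 over all tested genes.

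The replicate block narrows the intervals because numbers differ more than genotypes do. In that fit the 31 log2 fold changes lay between -0.38 and 0.55. The interval excluded a 2-fold change in either direction for 30 of the 31 genes; for Slc7a11 it ran from -0.16 to 1.26. Of the 31, 10 were higher in the labelled Ephb2-KO library of 3 of 3 pairs (32.3%, against 15.6% of all tested genes) and 2 were lower in 3 of 3 (6.45%, against 12.4%), together 38.7% against 27.9%. The 10 were Atf5, Cebpb, Trib3, Shmt2, Aldh18a1, Pycr1, Gpt2, Slc3a2, Slc7a3 and Nars, and the 2 were Atf4 and Cebpg. Most of these differences were small: Nars had 0.07, 0.02 and 0.07 in pairs 1, 2 and 3.

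Atf4 and Atf5 went in opposite directions within pairs. In the library labelled Ephb2-KO, Atf4 differed from its wild-type partner by a log2 value of -0.28, -0.03 and -0.15 in pairs 1, 2 and 3, and Atf5 by 0.39, 0.46 and 0.30. The blocked log2 fold change was -0.16 for Atf4 (SE 0.11, edgeR unadjusted p = 0.197) and 0.38 for Atf5 (SE 0.11, edgeR unadjusted p = 0.00531, adjusted p = 0.741). Cebpb differed by 0.55, 0.39 and 0.61, a blocked value of 0.52 (SE 0.13, edgeR unadjusted p = 0.00226, adjusted p = 0.741). Slc7a5 had 0.36 (SE 0.15, edgeR unadjusted p = 0.0398), with 0.81, -0.04 and 0.31 in the pairs, so it was higher in 2 of 3. Atf3 had -0.38 (SE 0.17, edgeR unadjusted p = 0.0441), with -0.40, 0.06 and -0.79. For each of these 3 the adjusted p was 0.741. Without the libraries numbered 3, blocked values were 0.43 for Atf5, 0.47 for Cebpb, 0.39 for Slc7a5, -0.18 for Atf3 and -0.16 for Atf4.

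Without the block the group means and their spread were 215 ± 116 against 194 ± 105 CPM for Atf4, 106 ± 88.5 against 135 ± 106 CPM for Atf5 and 28.2 ± 11.7 against 41.0 ± 19.5 CPM for Cebpb (wild type first, SD, n = 3 each). The log2 fold changes were -0.15 (SE 0.48), 0.35 (SE 0.71) and 0.54 (SE 0.42), and 0.31 (SE 0.50) for Slc7a5 and -0.41 (SE 0.32) for Atf3 (edgeR adjusted p = 1.0 for each). Fibroblast markers were higher in the labelled Ephb2-KO library of each pair by their sum: 5280 against 3360, 5720 against 4580 and 22100 against 18500 CPM. The mitochondrially encoded transcripts measured here were too, at 1.45% against 0.784%, 1.75% against 1.28% and 0.789% against 0.636% of counts. Their part in the values of Atf5 and Cebpb was not tested.

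**Figure D5:**
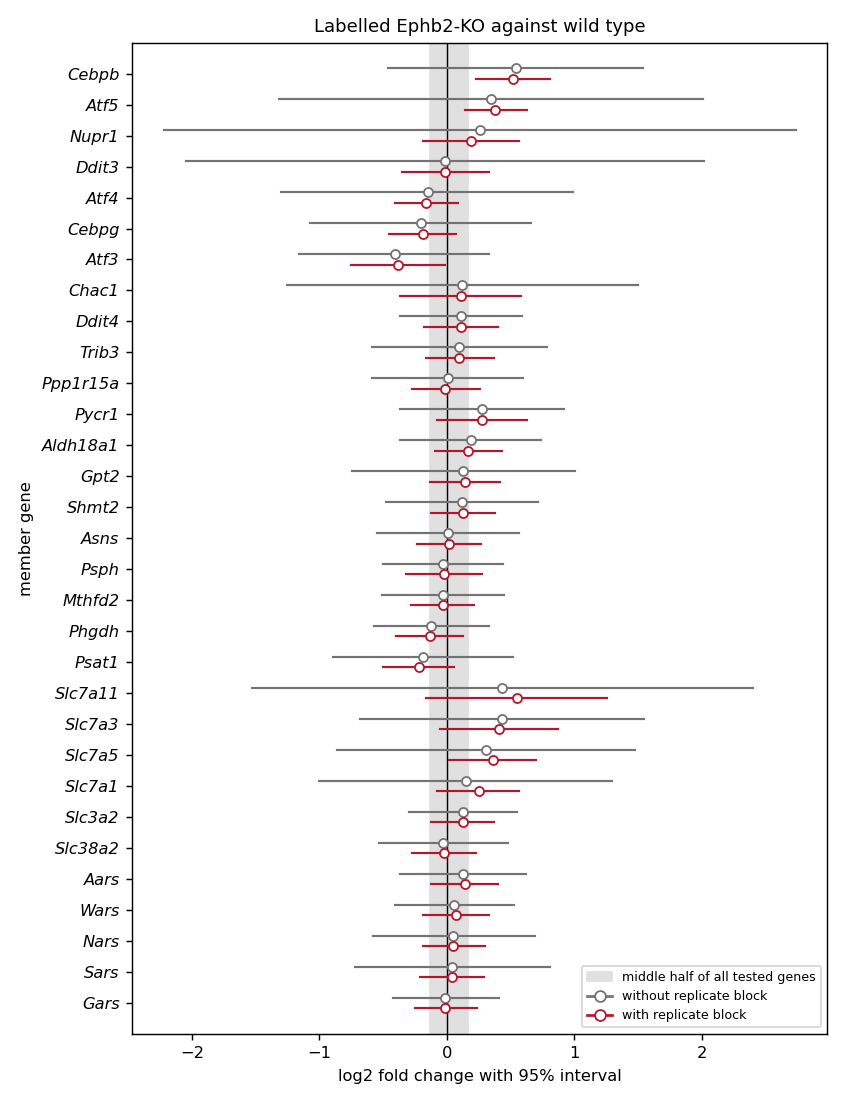
Points are log2 fold changes of the libraries labelled Ephb2-KO against wild type with 95% intervals, in grey without and in red with the replicate number as a block; open points did not pass an adjusted p of 0.05 and the grey band holds the values between the quartiles of all tested genes. No point is filled, red intervals are shorter than grey ones, and Cebpb and Atf5 lie above 0 with the block while Atf3 lies below.

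Other genes of the pathway did not pass between the genotype labels either: 0 of 16 initiation genes, 0 of 18 further targets and transporters, 0 of 20 further enzymes, 0 of 15 further synthetases and 0 of 20 chaperone genes were called by edgeR, with or without the block. Blocked list medians were 0.02, 0.21, 0.03, 0.08 and 0.02 in that order. Over all tested genes edgeR called 0% without the block and 0.0262% with it, so the counts of 0 were near the background. The genes with the smallest p were Slc1a4 (0.40, SE 0.13), Vldlr (0.35, SE 0.11), Aldh1l1 (0.55, SE 0.18) and Slc1a5 (0.34, SE 0.13), each with an edgeR adjusted p of 0.741. Others nearest in their lists were Ppp1r15b (0.30, SE 0.14), which like Ppp1r15a restores eIF2, Gcn1l1 (0.25, SE 0.13), Herpud1 (0.28, SE 0.14), Manf (0.18, SE 0.11), Prodh (-0.48, SE 0.23), Bcat1 (0.34, SE 0.18), Dars (-0.17, SE 0.12), Yars (0.16, SE 0.12), Vars (0.16, SE 0.13), Eif2b3 (-0.18, SE 0.12) and Syvn1 (0.18, SE 0.12). All had an adjusted p of at least 0.741.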

How the data were processed

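Polyadenylated RNA was measured in 6 mouse cell lines, 3 of each genotype label, with 1 library a line. The files deposited by the authors hold unnormalized counts for every gene name and another column, the exon length. Reads were counted, per the file headers, by featureCounts 1.4.6-p4 with GENCODE vM3 and strand setting 2, and with no option for read pairs or multi-mapping reads, so genes with near-identical copies can be undercounted. Per the submitters' processing notes STAR was used and the build was GRCm38.p3; the aligner's version is not given in the sources used here.

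The tests were run in edgeR 4.0.16 (R 4.3.3): filterByExpr (15263 genes), TMM scaling, glmQLFit with robust estimation and glmQLFTest, with Benjamini-Hochberg adjustment over all tested genes and a threshold of 0.05. Genotype labels were compared with no covariate. Replicate numbers were compared with the label as a covariate. Same-numbered libraries correlated at 0.596, 0.736 and 0.85 in their deviations from the group means, against at most 0.079 otherwise. By that check and the shared numbers in the titles, libraries of equal number were treated as pairs. The check comes from the same counts and cannot show a common origin. Standard errors were derived from each log2 fold change and its F statistic. Log2 CPM used a prior count of 2. DESeq2 1.42.0, other scalings and filters, leaving out libraries and the replicate block were alternatives, and the scripts were tested on simulated counts. Figures used matplotlib 3.10.9. Libraries were not duplicates (chi-square per degree of freedom at least 20.5). The 31 genes and the lists were chosen with earlier results of these data known. The named genes are the 31 and, from each list of other pathway genes, the 3 with the smallest p per comparison; 1 of these is not reported here. Marker lists were of germ cells, fibroblasts, Sertoli cells, and blood and endothelial cells. Intervals and floors cover the error of the model or of counting only.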

Additional observations from a re-analysis of the deposited data

Results flagged for a closer look

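Each of the 31 genes was also checked for a library that stood away from the rest among the 4 at passage 20, the only set large enough. Atf4 met that mark: its 121 CPM in Ephb2-KO replicate 1 lay below the other 3 libraries, which were within 146 to 150 CPM. Chance alone marks about 5% of such sets, and 1 of 31 was marked.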

How the results depend on the processing

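For the genotype labels, 0 of the 31 genes passed under each of the alternatives run. Over all tested genes the count was 0 without a block, and 4 with DESeq2, 4 with the replicate block, 4 with the replicate block and RLE size factors (added after seeing the data) and 19 with the replicate block and DESeq2; leaving out 1 number from the blocked fit gave 3 to 56. The block changed no call on the 31 genes. Leaving out single libraries moved the unblocked log2 value of Atf4 from -0.69 to 0.39 and of Atf5 from -0.51 to 1.29. For number 3 against numbers 1 and 2, leaving out single libraries gave 3376 to 8719 genes and 10 to 16 of the 31 members, with the low counts when either library numbered 3 was left out (10 without wild-type replicate 3, 11 without Ephb2-KO replicate 3). Single-library omissions moved Atf3 from -0.30 to 0.31, Phgdh from -0.08 to 0.09 and Psat1 from -0.01 to 0.20. Against number 1 alone Atf3 was -0.33; against number 2 alone Asns was -0.041, Psat1 -0.28, Phgdh -0.12 and Nars -0.011; with no filter Atf3 was -0.0035 and Phgdh -0.016. For number 2 against number 1, leaving out single libraries gave 1401 to 3555 genes and 4 to 12 members; upper quartile scaling lowered the share of calls that were higher from 49.4% to 37.7%. The cause was not tested. With 2 libraries a number, a lone library after an omission is assumed to vary like the others.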
